A study of Homo sapiens
Mus musculus with 3 samples.

Results

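RBM3 and CIRBP are small RNA-binding proteins with a single RNA recognition motif and a glycine-rich tail. Both are known as cold-shock proteins of mammalian cells: their mRNAs and proteins accumulate when cells are kept a few degrees below body temperature, RBM3 is known for supporting translation in the cold, and CIRBP for binding and stabilizing transcripts under stress. Both genes are transcribed at ordinary culture temperature too, in lymphocytes among many other cells. The data described here are the 4 rows of these genes, mouse Rbm3 (ENSMUSG00000031167) and Cirbp (ENSMUSG00000045193) and human RBM3 (ENSG00000102317) and CIRBP (ENSG00000099622), of 60736 genes in the tables. They were found by their Ensembl identifiers. The set was chosen by the read level of mouse Rbm3, which had been seen to be higher with one protocol than with the other, so its difference between the protocols, and that of Cirbp beside it, are descriptions and carry no test. The labels name no temperature as a condition, and the temperature at which cells were grown or handled was not given in the sources used here.

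Single cells were sequenced on the ICELL8 cx, which dispenses a suspension into nanowells, images them and processes those seen to hold a single cell. Every library was made from equal numbers of viable cells of 4 lymphocyte lines: Jurkat (a human CD4+ T-cell leukemia line), TALL-104 (a human CD8+ T-cell leukemia line, grown with IL-2), IVA12 (a mouse B-cell hybridoma) and EL4 (a T-cell lymphoma of the mouse). No line carried a treatment that set the groups apart. The group 3'DE had 2 libraries, made with the official kit for counting transcript 3' ends and named DE1 and DE2 here. The group 3'DE-UMI had 1 library, named UMI1, for which the cDNA was removed from the chip after reverse transcription, cleaned and treated with exonuclease before it was amplified, so that unique molecular identifiers (UMIs) could be counted. As the study records its samples, DE2 and UMI1 came from the same cell mixture and DE1 from another. Separate cultures are not stated for DE1 and DE2, so p-values between protocols measure the spread between these libraries. Those between clusters, with the library as a block, measure how the cluster difference varied from library to library.

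The libraries held between 35581264 and 109702878 reads in 1518 to 1704 well barcodes. After filtering, 700 to 922 mouse wells and 484 to 557 human wells remained per library, in 2 clusters per species. The files gave no gene symbols by which the marker genes of the lines could be read, so the clusters are called by number and not by line. In DE1, DE2 and UMI1, in this order, mouse cluster 1 had 476, 496 and 470 wells and mouse cluster 2 had 446, 277 and 230. For human cluster 1 the numbers were 406, 448 and 529, and for human cluster 2 they were 127, 36 and 28. Libraries shared well barcodes: 529 between DE1 and DE2, 539 between DE1 and UMI1, and 469 between DE2 and UMI1. Of the kept barcodes that a pair of libraries shared, 65.3% to 66.7% were in the same cluster in both, against 31.6% to 35.4% if they had been unrelated. Results are therefore also given for wells whose barcode was in 1 library. In DE2 the deepest 10% of wells held 51.4% of the reads, against 20.05% in DE1 and 34.2% in UMI1.

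Mouse Rbm3 was read most in UMI1 in both mouse clusters. Levels are given as CPM, reads of the gene per 1000000 reads of its own species summed over the wells of a cluster. In mouse cluster 1, the level of Rbm3 was 38.7 CPM in DE1, 84.1 CPM in DE2 and 395 CPM in UMI1. In mouse cluster 2 it was 37.3, 59.4 and 221 CPM. UMI1 was thus above both DE1 and DE2 in either cluster, and DE2 was above DE1. After scaling of the libraries, the log2 difference of UMI1 from DE1 and DE2 was 2.56 in cluster 1 and 1.996 in cluster 2. The SD between the unscaled log2 levels of DE1 and DE2 was 0.79 and 0.48. Within the shared cell mixture, against DE2 alone, the scaled difference was 2.15 and 1.83. The value in cluster 1 lay above that of 97.2% of 11792 genes tested, and the value in cluster 2 above that of 94.4% of 11625. Among all of these genes, 3.82% were called higher in UMI1 in cluster 1 and 0.774% in cluster 2, and 6.85% and 1.63% were called lower, with edgeR and Benjamini-Hochberg adjustment. Since Rbm3 was chosen for this difference, nothing is read from its place among them.

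**Figure D1:**
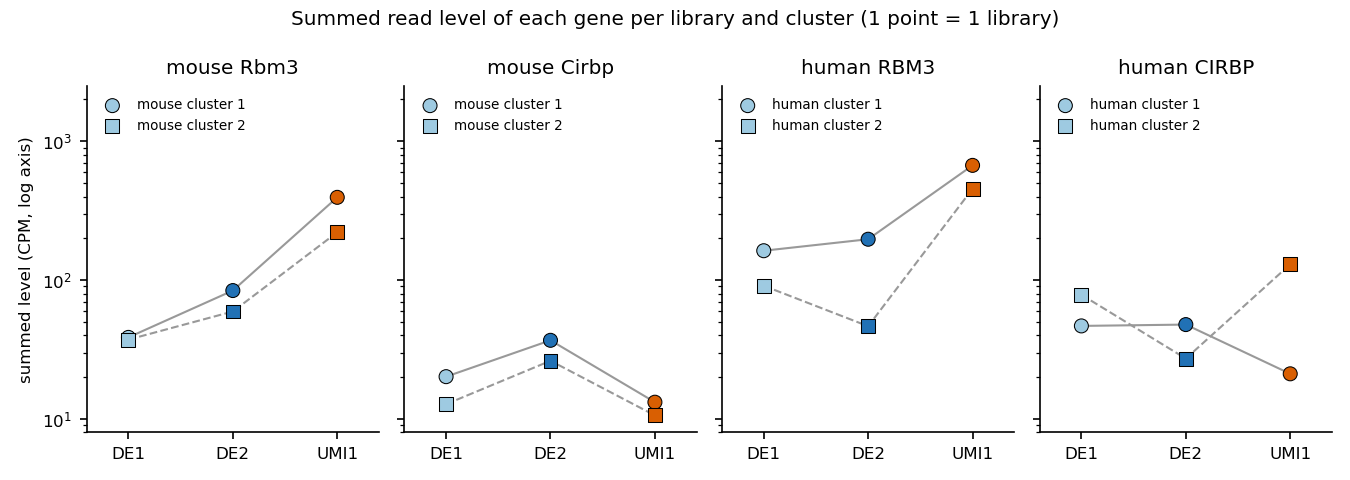
Summed level of each gene (CPM, log axis) in DE1, DE2 and UMI1, with circles for cluster 1 and squares for cluster 2 of the gene's species, each point a single library and the lines joining points of a cluster. Rbm3 and RBM3 are highest in UMI1 in every cluster, Cirbp is lowest there, and CIRBP is lowest there in human cluster 1, while its point at 130 CPM in human cluster 2 rests on 26 reads of 1 well. The point of RBM3 in human cluster 2 of UMI1 rests on 91 reads in 5 of 28 wells, and its level was 239 CPM without the well holding most of them.

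In mouse cluster 1 the level of Rbm3 in UMI1 changed little without its top well and between shallower and deeper wells. Without the well holding most of its reads, its level there was 37.8, 81.8 and 390 CPM in the libraries in the order above. In UMI1 it was 392 CPM in the shallower wells and 395 CPM in the deeper wells of cluster 1, divided at their median of 29910 reads. In DE1 these values were 39.92 and 38.0 CPM, and in DE2 they were 115 and 80.4 CPM. With wells whose barcode was in 1 library, the level was 41.1, 85.9 and 421 CPM. In mouse cluster 2 of UMI1, shallower wells had 133 CPM and deeper wells 244 CPM.

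Rbm3 was also found in more wells. To compare wells of unequal depth, each was thinned at random to 5000 reads of its own species. The share of wells of mouse cluster 1 with at least 1 read of Rbm3 was then 16.5% (exact 95% interval, 13.2 to 20.2) of 460 wells in DE1, 29.9% (25.8 to 34.2) of 478 wells in DE2 and 59.2% (54.5 to 63.8) of 456 wells in UMI1, with 16, 18 and 14 shallower wells left out. These intervals cover counting error in the wells and not the spread between libraries. Without thinning, the shares were 47.3%, 66.1% and 77.2%. In mouse cluster 2 the thinned shares were 14.1% (10.9 to 17.8), 18.4% (13.6 to 23.9) and 37.9% (31.6 to 44.7). With barcodes in 1 library, they were 17.8%, 31.4% and 58.9% in cluster 1. Human wells, which should lack the mouse gene, were thinned to 5000 reads of both species together. Their thinned share for mouse Rbm3 was 0.907%, 0.447% and 1.79%, at median depths of 21426, 34368 and 16457 reads of both species. The wells of mouse cluster 1 had median depths of 28428.5, 37067 and 29910 reads of mouse genes. The shares in mouse wells were thus many times those in wells of the other species. In cluster 1, UMI1 stood 36.0 percentage points above the average of DE1 and DE2. The same change had a median of -4.33 points over 6674 mouse genes with a mean of at least 10 CPM, of which 9.95% had a share above both DE1 and DE2. The shares come from the reads for which Rbm3 was chosen, so nothing is read from its place among these genes.

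**Figure D2:**
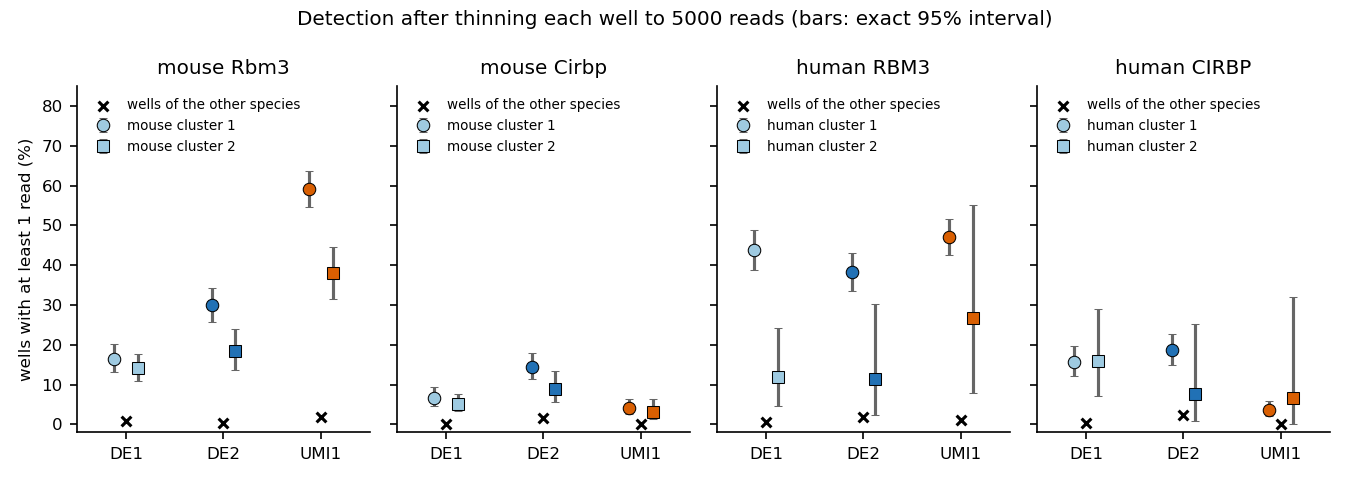
Percent of wells with at least 1 read of each gene after thinning to 5000 reads, per library, with circles for cluster 1, squares for cluster 2, bars for the exact 95% interval and crosses for wells of the other species, which lie between 0% and 2.38%. Rbm3 goes from 16.5% and 29.9% to 59.2% in mouse cluster 1, whereas human RBM3 lies at 43.8%, 38.3% and 47.0% in human cluster 1 with overlapping intervals.

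Levels in single wells, which come from the same reads for which Rbm3 was chosen, were highest in UMI1. The median well of mouse cluster 1 had 0 reads of Rbm3 per 10000 in DE1, 0.444 in DE2 and 2.61 in UMI1. A level above 5 per 10000 was reached by 0% of wells in DE1, 2.62% in DE2 and 25.7% in UMI1. Among wells with any read of Rbm3, the median number was 2, 5 and 13 reads. In mouse cluster 2 these medians were 1, 4 and 8.5 reads.

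**Figure D3:**
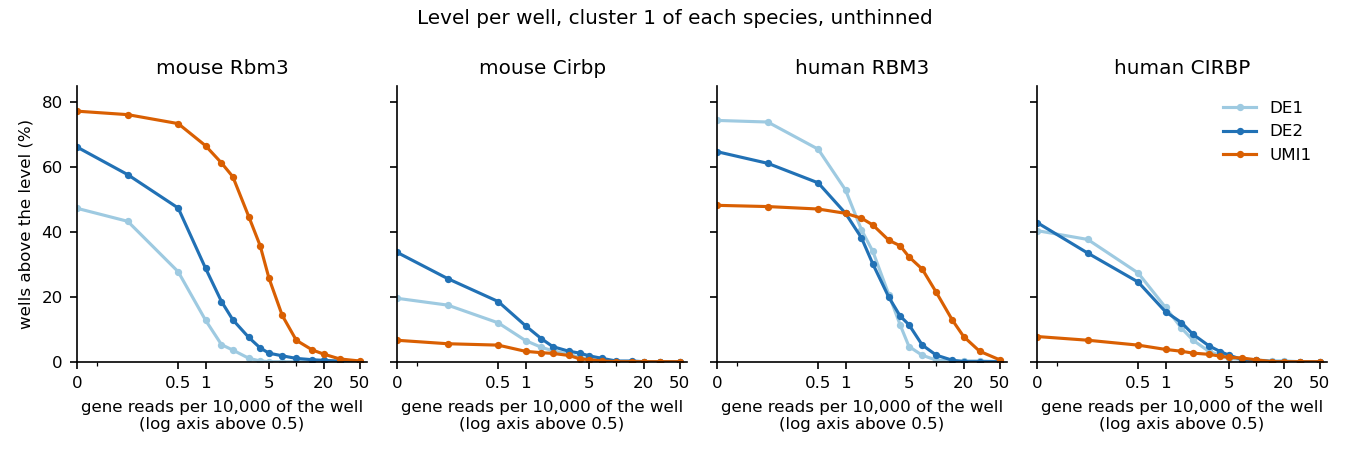
Percent of wells of cluster 1 (vertical axis) in which a gene exceeds the level on the horizontal axis, in reads per 10000 of the well, without thinning and with a color per library. For mouse Rbm3 the UMI1 curve is above both others along its length, whereas for human RBM3 it starts lowest, at 48.2% of wells, and lies above the others from 1.5 reads per 10000 on.

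In UMI1, UMIs could be set beside the reads, although the tables came from separate alignments. Rbm3 had 1054 UMIs in mouse cluster 1, which is 675 per 1000000 UMIs of mouse genes, and 296 UMIs, or 318 per 1000000, in mouse cluster 2. Fewer reads fell on each of its UMIs than for most genes: it had 6.78 reads per UMI in cluster 1, where the median over 6174 genes with at least 20 UMIs was 13.4 and 7.84% of the genes lay below Rbm3. In cluster 2 it had 7.60 reads per UMI, against a median of 12.8 over 5349 genes, with 11.01% of the genes below it. Rbm3 ranked 388th by reads and 209th by UMIs among genes of cluster 1. At least 1 UMI of Rbm3 was counted in 73.4% of wells of cluster 1 (exact 95% interval, 69.2 to 77.3) and in 57.8% of cluster 2 (51.2 to 64.3). With UMIs in place of reads for this library, the difference from DE1 and DE2 was 3.41 on the log2 scale in cluster 1 and 2.63 in cluster 2, although reads and UMIs were then set side by side.

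**Figure D4:**
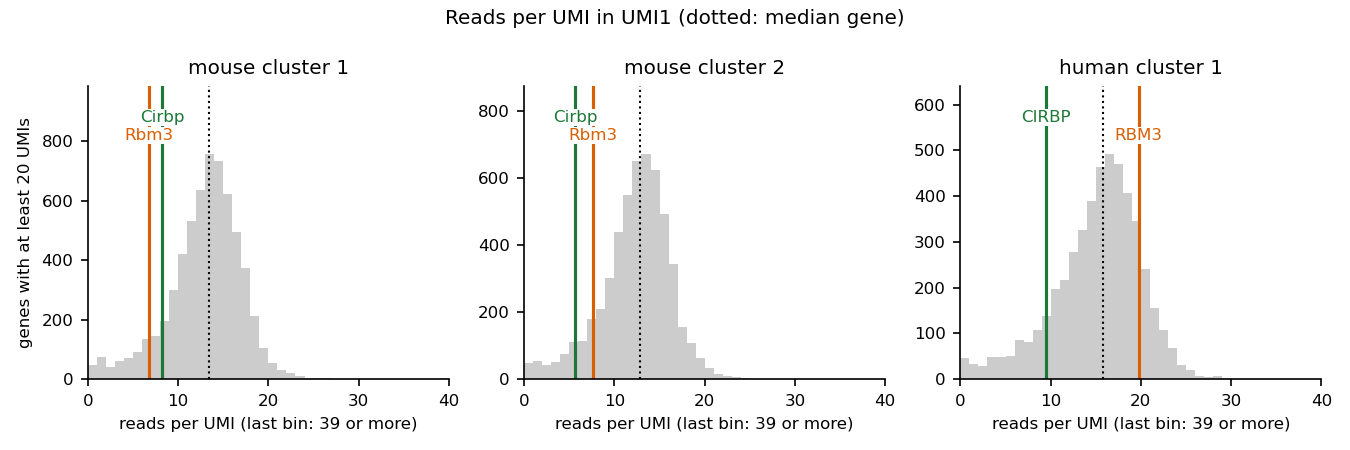
Number of genes (vertical axis) by reads per UMI in UMI1 for genes with at least 20 UMIs, with the 4 genes as colored lines and the median gene dotted. Mouse Rbm3 lies at 6.78 and 7.60, left of the median, and human RBM3 at 19.8, right of the median of 15.8; Cirbp in mouse cluster 2 had 19 UMIs and is drawn but not counted.

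Human RBM3, which the choice of the genes did not rest on, was tested. Its level in human cluster 1 was 163 CPM in DE1, 197 CPM in DE2 and 670 CPM in UMI1. UMI1 lay above both DE1 and DE2, which differed from each other by 0.28 on the log2 scale. The fitted log2 difference was 2.04 (SE 0.32), with an adjusted p of 0.00174 in edgeR's quasi-likelihood test with Benjamini-Hochberg adjustment over 13701 human genes. In this comparison 12.5% of the genes were called, 5.34% higher and 7.13% lower, and the difference of RBM3 lay above that of 90.0% of the genes. The test had 1 residual degree of freedom and assumed that UMI1 varied like DE1 and DE2. RBM3 was called under all of 8 alternatives that allowed a test, with differences from 1.499 to 2.09. The lowest of these set UMIs of UMI1 beside reads of DE1 and DE2. Within the shared cell mixture the difference was 1.87, and with wells whose barcode was in 1 library it was 2.07. With 1 library made by the UMI protocol, protocol and library cannot be told apart. The human and mouse wells came from the same libraries, so the result for RBM3 and the values of Rbm3 share them.

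The thinned share of wells of human cluster 1 with a read of RBM3 was 43.8% (38.9 to 48.9) of 390 wells, 38.3% (33.6 to 43.1) of 418 wells and 47.0% (42.5 to 51.6) of 483 wells in DE1, DE2 and UMI1, with 16, 30 and 46 shallower wells left out. The interval of UMI1 overlapped those of DE1 and DE2. With barcodes in 1 library the shares were 43.2%, 34.1% and 42.4%, so that UMI1 was not the highest. At 5000 reads UMI1 stood 5.94 points above the average of DE1 and DE2, where the median over 6604 human genes with a mean of at least 10 CPM was -6.01 points and 98.9% of the genes had a lower value. Of these genes, 5.53% had a share above both DE1 and DE2. Without thinning the shares were 74.4%, 64.7% and 48.2%, an order opposite to that of the CPM, at median depths of 25801, 36444.5 and 17403 reads per well, so no order is read from them. Mouse wells gave thinned shares of 0.564%, 1.96% and 1.03% for this human gene. In wells with any read of RBM3, the median number of reads was 4, 10 and 27. More than 10 reads per 10000 were found in 0.493%, 2.01% and 21.4% of the wells. In UMI1 RBM3 had 515 UMIs in human cluster 1, 470 per 1000000, and 19.8 reads per UMI, above the median of 15.8 over 4900 genes and above 85.5% of them. It ranked 231st by reads and 307th by UMIs. Wells with a UMI of RBM3 had a median of 1 UMI, where those of Rbm3 in mouse cluster 1 had a median of 2. With UMIs in place of reads, the difference of RBM3 was 1.499 (adjusted p = 0.0306, edgeR), lower than with reads, whereas that of mouse Rbm3 was higher. In both, UMIs of UMI1 were set beside reads of DE1 and DE2. Both shifts follow from the reads per UMI given above and are not a separate result. The difference between the species was not tested.

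**Figure D5:**
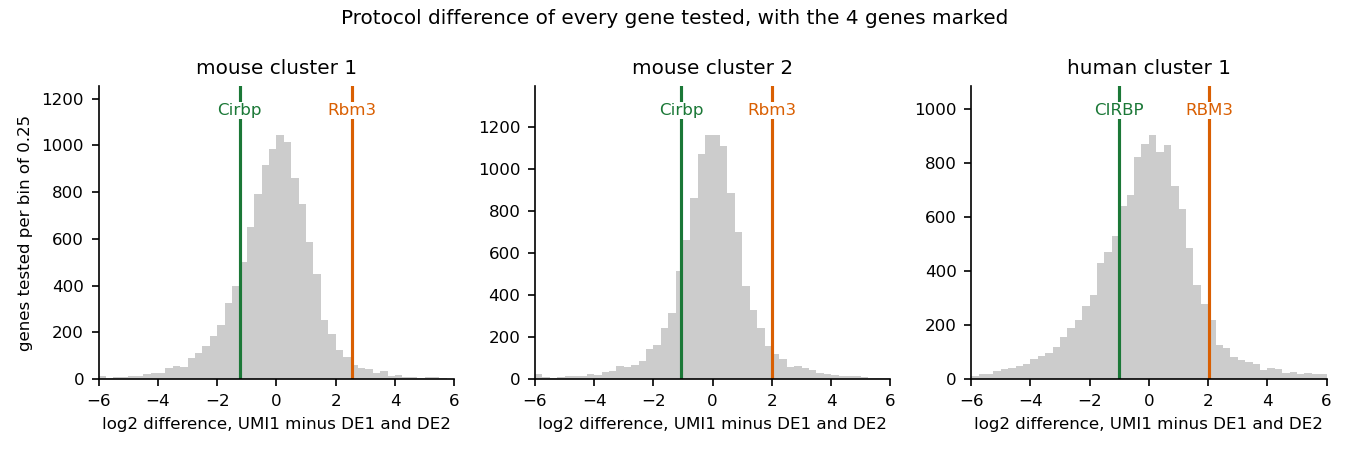
Number of genes (vertical axis, bins of 0.25) by fitted log2 difference of UMI1 from DE1 and DE2 in mouse cluster 1, mouse cluster 2 and human cluster 1, cut off at -6 and 6, with the 4 genes as colored lines. Rbm3 and RBM3 lie right of the bulk of genes at 2.56, 1.996 and 2.04, and Cirbp and CIRBP left of its center at -1.24, -1.06 and -1.02.

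Cirbp and CIRBP had their lowest level in UMI1 in both mouse clusters and in human cluster 1. The difference of Cirbp is a description, and that of CIRBP did not pass the test. In mouse cluster 1 the level of Cirbp was 20.2 CPM in DE1, 36.8 CPM in DE2 and 13.2 CPM in UMI1. In mouse cluster 2 it was 12.8, 26.2 and 10.6 CPM. UMI1 lay below both DE1 and DE2 in each cluster, and DE1 and DE2 differed from each other by 0.87 and 1.04 on the log2 scale. The fitted log2 differences of Cirbp were -1.24 and -1.06, with 19.2% of 11792 and 17.6% of 11625 genes tested lying lower. Within the shared cell mixture the differences of Cirbp were -1.55 and -1.36. Against DE1 alone they were -0.83 and -0.69. All of these are after scaling of the libraries, and the unscaled CPM of DE1 and UMI1 lie closer together than that in both clusters. The fitted differences moved with the processing, to -0.67 and -0.01 with UMIs, and to -2.32 and -2.72 with wells thinned to 1000 reads. With barcodes in 1 library they were -2.10 and -1.57. Cirbp rested on few reads in UMI1: 239 reads and 29 UMIs in 31 of 470 wells of cluster 1, and 108 reads and 19 UMIs in 19 of 230 wells of cluster 2.

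CIRBP in human cluster 1 was at 46.8 CPM in DE1, 47.8 CPM in DE2 and 21.1 CPM in UMI1. The 3'DE replicates nearly coincided, and UMI1 was below them, although 30.6% of 13701 human genes tested had a lower log2 difference than CIRBP. The log2 difference was -1.02 (SE 0.49) and did not pass the test (adjusted p = 0.195, edgeR). It passed under 1 of 8 alternatives, with wells thinned to 1000 reads (-1.85, adjusted p = 0.0204), and was -0.55 (adjusted p = 0.634) with wells whose barcode was in 1 library. In the human RefSeq annotation another gene, CIRBP-AS1, overlaps CIRBP on the opposite strand, and the strand setting of the counting was not given, so reads of the pair cannot be told apart.

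The share of wells with a read of either gene was lowest in UMI1 in these clusters. The thinned share of wells with a read of Cirbp was 6.74% (4.62 to 9.43), 14.4% (11.4 to 17.9) and 4.17% (2.53 to 6.43) in mouse cluster 1, in the order of the libraries above. In mouse cluster 2 it was 5.16%, 8.97% and 3.12%, with overlapping intervals for DE1 (3.26 to 7.71) and UMI1 (1.27 to 6.33). The share for CIRBP in human cluster 1 was 15.6% (12.2 to 19.6), 18.7% (15.04 to 22.7) and 3.73% (2.22 to 5.83). With barcodes in 1 library it was 14.1%, 11.4% and 4.24%. The change in share from the average of DE1 and DE2 was -13.4 points for CIRBP, beside the median of -6.01 over all human genes, and 26.9% of the genes had a lower value. For Cirbp it was -6.42 points in mouse cluster 1, beside a median of -4.33, and -3.94 points in mouse cluster 2, beside a median of -2.93, with 38.4% and 42.7% of the genes lower. The change of Cirbp was thus near that of all genes. Wells of the other species gave at most 1.57% for Cirbp and 2.38% for CIRBP.

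The clusters of a species were compared within each library, a contrast that the choice of the genes did not use. Rbm3 was 1.04-fold higher in mouse cluster 1 than in cluster 2 in DE1, 1.42-fold in DE2 and 1.79-fold in UMI1. Cirbp was 1.58-fold, 1.40-fold and 1.245-fold higher. The level was higher in cluster 1 in 3 of 3 libraries for both genes. With the library as a block, the log2 difference of Rbm3 was 0.70 (SE 0.22, adjusted p = 0.0349, edgeR over 11271 genes) and that of Cirbp 0.71 (SE 0.29, adjusted p = 0.0842). Of the mouse genes 40.6% were called, 20.5% as higher in cluster 1, so 1 of 2 genes called is near the background. The call of Rbm3 was lost in 5 of 12 alternatives, among them without DE2 (0.67, adjusted p = 0.109), without UMI1 (0.50, adjusted p = 0.119) and with wells whose barcode was in 1 library (0.82, adjusted p = 0.0569). Cirbp passed in 1 of 12, without UMI1 (0.79, adjusted p = 0.0493). Without scaling factors for composition, the median of all genes shifted from -0.03 to -0.25, and Rbm3 (0.47) and Cirbp (0.49) stayed above it. Whether the difference between the clusters itself differed between the protocols was not tested.

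In human cells, cluster 2 was too thin to order the levels firmly. RBM3 in human cluster 2 was at 91.0 CPM in DE1, 46.5 CPM in DE2 and 455 CPM in UMI1, from 58, 65 and 91 reads. It was below the level of cluster 1 in 3 of 3 libraries. CIRBP in human cluster 2 was at 78.5, 27.2 and 130 CPM, from 50, 38 and 26 reads, the last in 1 well. It was above the level of cluster 1 in DE1 and UMI1 and below it in DE2. The fitted log2 difference, cluster 1 minus cluster 2, was 1.29 (SE 0.82, adjusted p = 0.392, edgeR) for RBM3 and -0.71 (SE 1.64, adjusted p = 0.845) for CIRBP, where 3.99% of 9485 genes were called and the median of all genes was 1.69. Neither was called under any of 12 alternatives.

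Few thinned wells had reads of both genes of a species. In thinned wells of mouse cluster 1 in UMI1, 10 wells had reads of both genes, 260 of Rbm3 alone, 9 of Cirbp alone and 177 of neither. Cirbp was thus read in 3.70% of wells with Rbm3 and 4.84% of wells without it. In human cluster 1 of that library, CIRBP was read in 3.96% of wells with RBM3 and 3.52% of wells without it. In DE1 the shares were 2.63% and 7.55% in mouse cluster 1 and 18.7% and 13.2% in human cluster 1, and in DE2 they were 15.4% and 14.0%, and 16.9% and 19.8%. The direction differed between libraries. Pearson's r of the log2 levels per well was between -0.05 and 0.07 in these 6 sets of 406 to 529 wells, in counts too sparse for a relation to be read from it.

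The pattern over clusters and libraries was compared with that of other genes by Pearson's r of log2(CPM + 1) over the 6 sums of a species, among 2991 mouse and 3008 human genes with a mean of at least 50 CPM. These sums share libraries, so r is a description. Rbm3 was chosen for its higher level in UMI1, so genes that are also higher there come near it, and nothing is read from their number. The nearest gene to Rbm3 was ENSMUSG00000031256 (r = 0.997), and 143 genes had an r above 0.9. That gene was at 43.1 and 45.2 CPM in clusters 1 and 2 of DE1, 56.5 and 52.8 CPM in DE2, and 102 and 82.4 CPM in UMI1, a smaller span than that of Rbm3. The nearest to RBM3 was ENSG00000171858 (r = 0.992), with 136 genes above 0.9. Cirbp and CIRBP had fewer such genes, 16 and 30, led by ENSMUSG00000061904 (r = 0.955) and ENSG00000197579 (r = 0.983). The sums of RBM3 in human cluster 2 rest on 58, 65 and 91 reads, the last in 5 of 28 wells, so nothing is read from its r. The r between Rbm3 and Cirbp was -0.40 and that between RBM3 and CIRBP 0.10. The highest of the 6 sums of CIRBP, human cluster 2 of UMI1, rests on 26 reads of 1 well. ENSG00000197579 was highest in that sum too, at 174 CPM against 27.3 CPM in human cluster 1 of UMI1. Each r of CIRBP thus leans on that well, and nothing is read from it.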

How the data were processed

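The authors deposited 1 table of read counts (genes by well barcodes, not normalized) for each of 3 libraries. Per the methods, reads had been downsampled first and read counts were then made with mappa and STAR 2.7.0b, on a joint hg19 and mm10 reference. For the 3'DE-UMI library they also deposited UMI counts, made with the Drop-seq tools and STAR 2.4.2a. The values were used as deposited. Several reads can come from 1 molecule, so intervals cover counting error only.

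Wells with at least 1000 reads and 200 genes were kept, and those with 10% or more reads of the other species were left out as mixed. Mixed wells were 180 of 1635 in DE1 and 175 of 1432 in DE2, but 36 of 1293 in UMI1. With the limit at 5%, human cluster 1 fell from 406 to 253 wells in DE1 and from 448 to 263 in DE2, but from 529 to 495 in UMI1. Admixture of the other species was thus lower in UMI1 than in DE1 and DE2, where protocol and library cannot be told apart. Wells had been imaged to hold a single cell, and no doublet caller was run within a species. Wells were clustered per species with scanpy 1.11.5 (1000 variable genes, 20 components, Leiden resolution 0.1). Genes were split at random into 2 sets, and the clustering from one set served the tests of the other. The 4 genes took part in neither clustering, and 9 of 3969 wells changed cluster between the sets. Sums of reads over the wells of a cluster in a library were tested with edgeR 4.0.16 (filterByExpr, TMM, quasi-likelihood F-test, two-sided, Benjamini-Hochberg, threshold 0.05), with the library as a block in comparisons of clusters. DESeq2 1.42.0 was an alternative. Each test across genes was checked on simulated data.

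The genes, lists and comparisons were chosen with earlier results of these data known. Named genes were the 4 genes and, for each, the nearest gene by correlation of 3 that the rule gives. Lists of chaperone, RNA-binding, stress and line marker genes had been planned by symbol and were not used, since no file paired their identifiers with symbols. For the same reason no mitochondrial check was made. The reference gene table is of another human build, so no coordinates are given. Shared barcodes were left out in an alternative chosen after seeing the data.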

Additional observations from a re-analysis of the deposited data

Results flagged for a closer look

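Counts of these genes outside the comparisons exceeded the limit of 3 that a count of 0 allows. The UMI table held 1543 barcodes that were not in the read table. Under them stood 39 UMIs of Rbm3, 2.75% of its UMIs, where such barcodes held 2.54% of all mouse UMIs, and 14 UMIs of RBM3, 2.47% of its UMIs, against 2.16% of all human UMIs. Cirbp had 1 UMI there and CIRBP 0.

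Wells left out as mixed held a larger share of the reads of CIRBP than of all human reads in 3 of 3 libraries. The same held for Cirbp and all mouse reads, in UMI1 by little. In DE1, 224 reads of CIRBP were in mixed wells, 29.5% of its reads, where these wells held 12.9% of all human reads, and 39 reads of Cirbp, 9.15%, against 2.90% of all mouse reads. In DE2 the mixed wells held 183 reads of CIRBP (7.24%, against 4.67%) and 129 reads of Cirbp (6.20%, against 2.80%). In UMI1 they held 44 reads of CIRBP (11.2%, against 2.002%), all in 2 wells, and 5 reads of Cirbp (1.42%, against 1.28%). For RBM3 the shares were 14.4%, 5.30% and 2.14% in DE1, DE2 and UMI1, also above those of all human reads. For Rbm3 they were 2.69%, 2.17% and 1.81%, below those of all mouse reads in DE1 and DE2 and above in UMI1. The reads of Cirbp in mixed wells came from 7 wells in DE1 and 21 in DE2, and those of CIRBP from 43 and 24. How such shares spread over other genes was not examined. No group had the 4 libraries needed to look for a library far from the others.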

How the results depend on the processing

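The higher level of human RBM3 in UMI1 passed the test in each of 8 alternatives, and no difference with a test changed direction in any. The difference of Rbm3 between the mouse clusters was no longer called without TMM factors (0.47), without the library block (0.95) and with barcodes in 1 library (0.82), and it ranged from 0.50 to 0.95 as each library was left out. That of Cirbp ranged from 0.68 to 0.79 in this way and was called without UMI1, and over all alternatives it ranged from 0.35, with wells thinned to 1000 reads, to 0.83. CIRBP in human cluster 1 was called with wells thinned to 1000 reads (-1.85) and lay at -1.07 and -0.99 without DE1 and without DE2. For the untested mouse values, UMIs gave 3.41 and 2.63 for Rbm3 in clusters 1 and 2 and -0.0065 for Cirbp in cluster 2. Thinning to 1000 reads gave -2.32 and -2.72 for Cirbp, and barcodes in 1 library gave -2.10 in cluster 1. The causes were not tested.

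The number of genes called between mouse clusters was 4571, and it was 2984 without the library block, 2007 with thinning, 3019 with barcodes in 1 library and 3014 to 5073 as each library was left out. Between human clusters it was 378, and it was 1482 with DESeq2, 133 without the block, 141 with barcodes in 1 library and 29 to 458 as each library was left out. Between protocols, thinning gave 831 for mouse cluster 1 (1258 as reported) and 114 for mouse cluster 2 (280), and UMIs gave 737 for human cluster 1 (1708).

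Shares depended on depth. In cluster 1, UMI1 minus the average of DE1 and DE2 was 36.0 points for Rbm3, and 20.5 without thinning and 16.7 with both UMIs and no thinning. For Cirbp it was -6.42, and -20.01 and -20.9. For RBM3 it was 5.94, and -21.4 and -22.3, so its direction rests on thinning, and it was 12.2 at 2000 reads. For CIRBP it was -13.4, and -33.9 and -35.4, with -4.38 at 2000 reads and -8.47 with barcodes in 1 library. Assignment of wells by marker genes was not run, since no identifier was paired with a symbol. No paired analysis was possible because UMI1 is the only library of its group, so the groups share fewer than 2 replicate numbers.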
